A study of Mus musculus with 13 samples.

Results

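The gp130 cytokine receptors and ligands, a family that includes Cntfr, were followed across the RNA profiles of TSG101-overexpressing mammary tumors and normal mammary glands. They were selected by gene symbol, on the basis of how Cntfr and its relatives differed between tumors and glands in these libraries. Of 9 genes (Cntfr, Il6ra, Il11ra1, Il6st, Lifr, Osmr, Lif, Clcf1 and Il6), 8 were listed among the 15213 genes of the expression table and Il6 was not. Because that difference chose the family, the tumor and gland values of its members are given as a description, with no p-value.

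Cytokines of the interleukin-6 family signal through gp130, the product of Il6st. A ligand-binding receptor such as CNTFR, IL6RA or IL11RA, which has no signaling domain of its own, presents its cytokine to gp130 alone or to gp130 paired with LIFR, whereas oncostatin M engages OSMR or LIFR beside gp130 directly. The complexes activate Janus kinases and chiefly STAT3, which in turn induces the feedback inhibitor SOCS3. In the mammary gland this axis is best known from the onset of involution after weaning, when LIF and STAT3 drive the loss of milk-producing cells, and CNTFR is best known from neurons and skeletal muscle.

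The 10 tumors came from 6 females of the genotype MMTV-tTA TetO-Tsg101 (labelled MtTA Teto-TSG101wt), and the 3 glands from wild-type FVB females. In the tumor-bearing mice the MMTV promoter drives the tetracycline transactivator in the mammary epithelium, and the transactivator switches on a transgene for HA-tagged TSG101 and luciferase as long as no doxycycline is given. Of the 6 females, 3 gave 1 tumor each, 2 gave 2 (tumors 2 and 3, tumors 5 and 6) and 1 gave 3 (tumors 8, 9 and 10), so that not all tumors were independent. Ages were not given, nor was the reproductive stage of the FVB females, and glands differ from tumors in tissue composition as well as in the transgene.

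Depth ranged from 6176269 to 16835397 reads on listed genes in the tumors and from 11672487 to 23889042 in the glands. Values are in normalized cpm, read counts relative to library size with a normalization factor per library. The limit that 0 reads allow, 3 reads, was 0.141 to 0.683 normalized cpm in the tumors and 0.128 to 0.366 in the glands, and covers counting error only. Tsg101 itself, for which reads of the transgene and the mouse gene were summed, averaged 66.5 ± 15.5 normalized cpm over the tumors (SD, n = 10) and 53.2 ± 7.68 over the glands (SD, n = 3), with overlapping ranges. Summed epithelial markers were at 2262 to 4522 in the tumors and 1122 to 2380 in the glands, and all 6 milk genes were significantly lower in the tumors (limma). The milk protein gene Csn2 reached 56894 to 63624 in the glands and 85.1 to 21978 in the tumors. Squamous and hair follicle genes marked the tumors, with Ivl and Krt73 at 0 in all glands. Skeletal muscle genes summed to 2313 in tumor 4 and 447 in tumor 10 but to 8.24 to 22 in the other 8 tumors, and lymphocyte genes to 495 and 502 in glands 1 and 3 but to 24.4 in gland 2.

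Cntfr (Entrez 12804; chr4:41657498-41697091 in GRCm38.p6, minus strand), which encodes the glycolipid-anchored receptor for ciliary neurotrophic factor, showed the widest separation of the family. The tumors ranged from 23.8 to 208 normalized cpm with a median of 96.6, and glands 1, 2 and 3 were at 2.14, 0.671 and 0.488. Every tumor lay above every gland, and even the lowest tumor was far above the highest gland. The tumor mean of 104 ± 62.1 (SD, n = 10) was 94.9 times the gland mean of 1.1 ± 0.906 (SD, n = 3). Gland 1 carried much of that gland mean, which was 0.579 without it, a ratio of 180.

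The gland values of Cntfr rested on few reads. Glands 1, 2 and 3 held 50, 13 and 4 reads, and the exact 95% Poisson interval of gland 3 ran from 0.133 to 1.25 normalized cpm. Reads of Cntfr numbered 130 to 3268 in the tumors. On the log2(normalized cpm + 1) scale the difference was 5.44 (SE 0.57), a scale that understates changes of genes near 0. On the recovered read counts it was 6.43 with edgeR and 6.52 with DESeq2, both of them log2 fold changes. When tumors 4 and 10, the ones with skeletal muscle genes, were left out, the difference was 5.36 on the log2(normalized cpm + 1) scale.

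RefSeq (GRCm38.p6) gives Cntfr several start sites, whose windows of 250 bases before to 50 after the start had GC contents of 51.3% to 78.7%. The window at chr4:41695404-41695703 (minus strand, read toward the gene) is at 78.7%. That is the top of this range. The GC contents of genes given below are those of the longest transcripts and not of such windows.
Cntfr promoter: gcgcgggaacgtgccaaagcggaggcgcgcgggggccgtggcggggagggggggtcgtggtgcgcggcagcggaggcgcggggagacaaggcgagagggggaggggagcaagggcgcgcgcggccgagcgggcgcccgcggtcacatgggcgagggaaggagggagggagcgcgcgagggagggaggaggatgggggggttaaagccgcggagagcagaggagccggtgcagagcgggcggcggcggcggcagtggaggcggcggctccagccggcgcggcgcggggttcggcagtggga

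Within 100 kb of Cntfr on chromosome 4, 8 other genes were listed, among them Il11ra1, a member of the family whose values are described below. Of the genes that are not members, Enho did not pass the filter and none of the rest was significantly deregulated at more than 2-fold. The highest log2 fold change among these was 0.76, for Ccl27a (adjusted p = 0.126, limma with Benjamini-Hochberg adjustment), and Rpp25l, at 0.61 (adjusted p = 0.00647), stayed under the 2-fold limit. Il11ra1 lies 63352 bp from Cntfr.

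Il6ra (Entrez 16194; chr3:89869324-89913196), the ligand-binding receptor for interleukin-6, had the opposite distribution. Glands 1, 2 and 3 were at 47.7, 27.6 and 19.1 normalized cpm, while the tumors ranged from 0.96 to 9.25 with a median of 4.2. No tumor reached the lowest gland. The gland mean of 31.5 ± 14.7 (SD, n = 3) was 6.97 times the tumor mean of 4.52 ± 2.28 (SD, n = 10), and the log2 difference was -2.58 (SE 0.38). Only 5 of the 13 libraries exceeded 5 normalized cpm, so Il6ra did not pass the filter on low abundance. Exons of Il6ra overlap those of Gm42809 on the opposite strand, and the strand setting of the read counting is not given in the sources used here.

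Il11ra1 (Entrez 16157; chr4:41760443-41769473), the receptor for interleukin-11, was the most even member across the tumors. They ranged from 59 to 86.1 normalized cpm with a median of 74.3, and glands 1, 2 and 3 were at 42.3, 46.5 and 65.5. In 8 of 10 tumors it was above all 3 glands, and the remaining tumors lay between the glands. The log2 difference was 0.50 (SE 0.16) and turned to -0.31 when libraries were scaled to epithelial genes. Of its possible 75-base reads, 35.9% also occur in Gm13305 or Il11ra2, so that reads of these copies may be divided among them, and its exons overlap Ccl27a on the opposite strand.

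**Figure D1:**
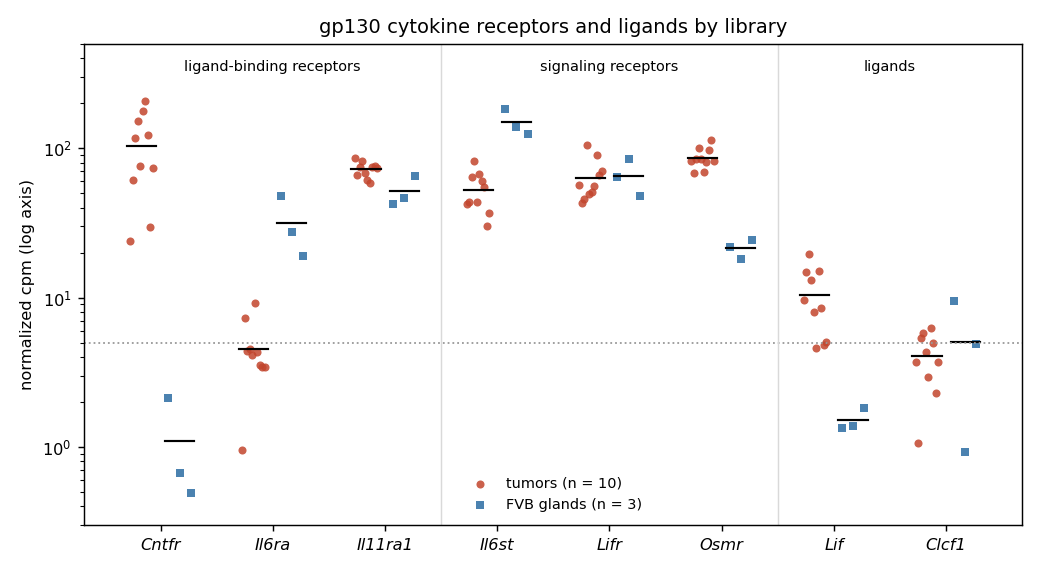
Normalized cpm (log axis) of the 8 listed members in each of the 10 tumors (circles) and 3 FVB glands (squares), grouped by role; black bars are group means and the dotted line marks 5 normalized cpm, the limit of the filter. All 10 tumors lie above the glands for Cntfr, Osmr and Lif and below them for Il6ra and Il6st, while Il11ra1, Lifr and Clcf1 overlap. The family was chosen on this difference, and the share of all genes that separate the groups in this way is not given here.

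Il6st (Entrez 16195; chr13:112464070-112506860) encodes gp130, the subunit that all these cytokines share. Its level was 183, 140 and 124 normalized cpm in glands 1, 2 and 3 and 30.3 to 82.7 in the tumors, with a median of 49.6. All tumors were below all glands, and tumor 4 came closest. The gland mean of 149 ± 30.6 (SD, n = 3) was 2.83 times the tumor mean of 52.6 ± 16.1 (SD, n = 10), and the log2 difference was -1.52 (SE 0.26).

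Lifr (Entrez 16880; chr15:7090610-7197489), the partner of gp130 for LIF and for the CNTF complex, ranged from 42.9 to 106 normalized cpm in the tumors with a median of 56.7. Glands 1, 2 and 3 were at 64, 84.7 and 48.2. The groups overlapped over the whole gland range, and the log2 difference of -0.07 (SE 0.26) was smaller than its error.

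Osmr (Entrez 18414; chr15:6813568-6874968), the receptor subunit specific to oncostatin M and, with another chain, to interleukin-31, was the counterpart of Il6st. The tumors ranged from 68.2 to 114 normalized cpm with a median of 83.6, and glands 1, 2 and 3 were at 21.8, 18.1 and 24.4. Every tumor was above every gland by a wide margin, and the tumors differed among themselves by no more than 1.68-fold. The tumor mean of 86.6 ± 14.2 (SD, n = 10) was 4.05 times the gland mean of 21.4 ± 3.17 (SD, n = 3), and the log2 difference was 1.96 (SE 0.17).

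Among the ligands, Lif (Entrez 16878; chr11:4257568-4272514), the leukemia inhibitory factor, was at 4.63 to 19.7 normalized cpm in the tumors with a median of 9.07 and at 1.33, 1.39 and 1.83 in glands 1, 2 and 3. The groups did not overlap. The tumor mean of 10.3 ± 5.16 (SD, n = 10) was 6.82 times the gland mean of 1.52 ± 0.272 (SD, n = 3), and the log2 difference was 2.04 (SE 0.38). The glands held 15 to 31 reads of Lif, and the log2 fold change was 2.78 with edgeR and 2.79 with DESeq2 on read counts.

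Clcf1 (Entrez 56708; chr19:4214238-4223505), a cytokine that binds CNTFR, ranged from 1.06 to 6.29 normalized cpm in the tumors with a median of 4.03. Glands 1, 2 and 3 were at 9.42, 0.929 and 4.88, so that the glands alone spanned a wider range than the tumors. The log2 difference was -0.05 (SE 0.44). Clcf1 did not pass the filter, and 6.05% of its possible reads occur also in AC109138.7. Cntf, the cytokine that names the receptor, was not listed, and neither was Il6.

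Over the 8 listed members the median log2 difference was 0.23, and over all listed genes it was 0.01, both without the filter. Of the 11795 genes tested after the filter, 10.2% were higher in tumors at more than 2-fold and an FDR below 0.05, 6.99% were lower and 17.2% were called in either direction. Of the 6 members past the filter, 3 were called higher (Cntfr, Osmr and Lif) and 1 lower (Il6st). These counts apply the call rule to the values that chose the family, and nothing is read from them. The filter was also uneven. A gene above 5 normalized cpm in the tumors alone could pass it, as Cntfr and Lif did. A gene above that limit in the 3 glands alone could not. Without the filter 1603 of all listed genes were called higher and 1538 lower. The direction of called genes depended on scaling. The median log2 fold change of all tested genes was 0.01 as deposited and -0.78 after scaling to epithelial genes, and the share of higher calls went from 59.3% to 12.5%. After that scaling the log2 differences were 4.93 for Cntfr, 1.43 for Lif, 1.17 for Osmr, -2.33 for Il6st, -3.34 for Il6ra and -0.87 for Lifr.

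Several cell type marker lists moved with the members that were higher in the glands. Of the adipocyte markers 10 of 10 were lower in the tumors, with sums of 82.5 to 510 against 4473 to 12488 normalized cpm. Endothelial markers were lower for 8 of 9 genes (67.7 to 147 against 314 to 709), lymphocyte markers for 7 of 9 (11.6 to 133 against 24.4 to 502) and fibroblast markers for 4 of 10 (427 to 1246 against 4007 to 4534). None of these lists had a marker at 0 throughout the tumors or the glands. In bulk tissue, fewer cells of a type and less RNA per cell cannot be told apart, and the part of these cell types in the levels of Il6st and Il6ra was not tested. Other lists moved with the members that were higher in the tumors. Hair follicle markers were called higher for 6 of 6 genes (122 to 3283 against 10.1 to 15.7) and squamous markers for 6 of 7 (264 to 2244 against 6.55 to 20.2). Neutrophil markers were called higher for 3 of 5 listed genes (303 to 3930 against 3.98 to 46.2), epithelial markers for 3 of 10 and macrophage markers for 2 of 8. Their part was not tested. With glands 1 and 3 left out, which kept only the gland low in lymphocyte genes and leaves no spread among glands, the log2 differences were 5.69 for Cntfr, 2.18 for Osmr, 2.10 for Lif and -1.45 for Il6st. That of Clcf1 moved from -0.05 to 1.30.

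The receptors were then ordered within each tissue. The order in tumors and that in glands come from the same values that chose the family, and a difference between them restates that choice. Per kilobase of exon, Cntfr had the highest mean level in the tumors, 37.5 ± 22.3 normalized cpm per kb (SD, n = 10). Il11ra1 came next at 16.2 ± 1.95, and Cntfr was above it in 8 of 10 tumors, not in tumors 1 and 9. Then followed Osmr at 7.15 ± 1.17, Lifr at 5.9 ± 1.91 and Il6st at 4.74 ± 1.45. These signaling receptors overlapped in their ranges, with Osmr above Lifr in 8 of 10 tumors and Lifr above Il6st in 7 of 10. The ligands Lif and Clcf1, at 2.38 ± 1.19 and 1.06 ± 0.431, were separated in all 10 tumors, and Il6ra was last at 0.523 ± 0.263.

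In the glands gp130 stood at the top instead. Il6st was at 13.4 ± 2.76 normalized cpm per kb (SD, n = 3) and Il11ra1 at 11.5 ± 2.76, with Il6st above in 2 of 3 glands. Lifr at 6.09 ± 1.7 and Il6ra at 3.64 ± 1.7 followed, each above the next gene in all 3 glands. Osmr was at 1.77 ± 0.262 and Clcf1 at 1.33 ± 1.12. Cntfr, at 0.395 ± 0.326, and Lif, at 0.349 ± 0.0626, came last and were not separated from each other. With the longest transcript in place of all exons the order of means in the tumors was the same, but Il11ra1 was at 27.8 and Osmr at 15.8 normalized cpm per kb, and Osmr, at 12.4 to 20.8, no longer overlapped Lifr, at 4.44 to 11. In the glands Il11ra1 and Il6st exchanged places, as did Osmr and Il6ra.

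**Figure D2:**
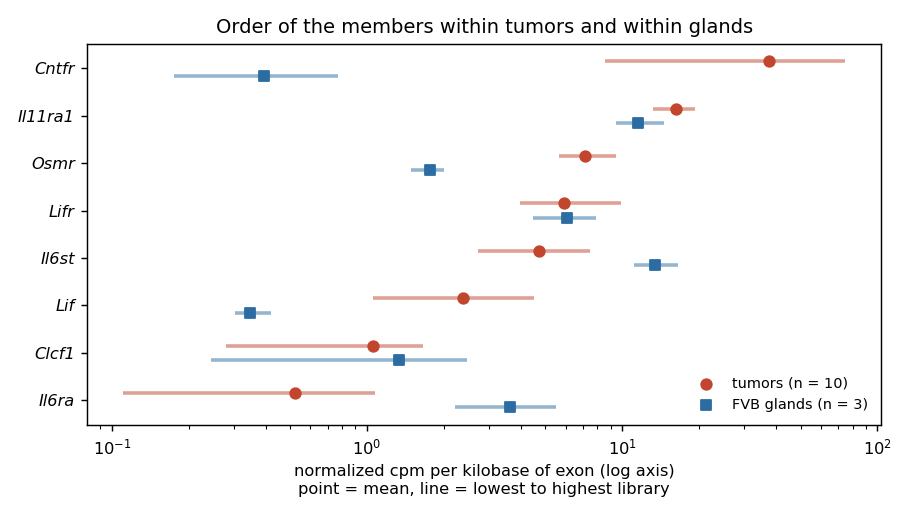
Mean level (point) and range over libraries (line) of each member in normalized cpm per kilobase of exon (log axis), in 10 tumors (circles) and 3 FVB glands (squares). Cntfr is first in the tumors at 37.5 and next to last in the glands at 0.395, while Il6st is first in the glands at 13.4 and below Osmr and Lifr in the tumors at 4.74.

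Put as a composition of the same values, the ligand-binding receptors of the glands were mainly Il11ra1 and Il6ra. On the scale per kilobase of exon, Il11ra1 made up 73.7% ± 13 (SD, n = 3) of the sum of the 3 genes in the glands, Il6ra 23.7% ± 11 and Cntfr 2.55% ± 2.05. In the tumors Cntfr made up 63.5% ± 17.5 (SD, n = 10), Il11ra1 35.5% ± 17.5 and Il6ra 1.02% ± 0.541. The share of Cntfr was lowest in tumor 1 at 30.7% and tumor 9 at 37.9% and highest in tumor 7 at 84.5%.

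Among the signaling receptors, Il6st made up 62.9% ± 5.33 (SD, n = 3) in the glands and 26.7% ± 6.58 (SD, n = 10) in the tumors. Osmr went the other way, from 8.55% ± 2.51 to 40.6% ± 5.4. The share of Lifr was 28.6% ± 6.28 in the glands and 32.6% ± 5.01 in the tumors, within the spread of either group. With the longest transcript the share of Osmr in the tumors was higher, at 55.8%, and that of Il6st lower, at 21.4%. Transcript levels of subunits are not amounts of receptor complexes, which were not measured.

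**Figure D3:**
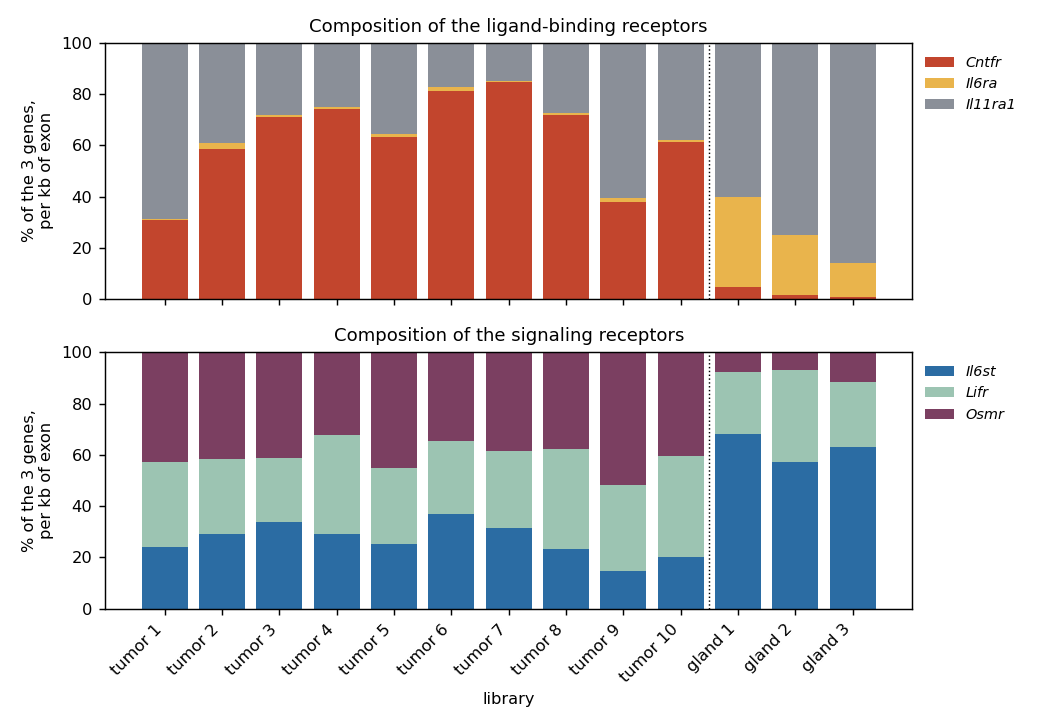
Share of each gene (% of the sum of 3 genes, per kilobase of exon) among the ligand-binding receptors (top) and the signaling receptors (bottom) in each library, with the 10 tumors left and the 3 glands right of the dotted line. Cntfr takes 30.7% to 84.5% of the top bars in the tumors and at most 4.88% in the glands, and Osmr takes 40.6% of the bottom bars on average in the tumors and 8.55% in the glands.

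The tumors differed widely in Cntfr, with an 8.72-fold range, against 9.64-fold for Il6ra, 5.92-fold for Clcf1, 4.25-fold for Lif, 2.73-fold for Il6st, 2.48-fold for Lifr, 1.68-fold for Osmr and 1.46-fold for Il11ra1. The level of Cntfr differed also between tumors of the same mouse. Tumors 8, 9 and 10 of the same female were at 122, 29.6 and 74.3 normalized cpm, a 4.12-fold range, and tumors 5 and 6 of another at 75.7 and 179. Lifr differed by 1.37-fold among tumors 8, 9 and 10, by 1.03-fold between tumors 5 and 6 and by 1.07-fold between tumors 2 and 3.

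The spread within mice was compared with that under all 12600 ways of assigning the tumors to the mice (exact permutation test, one-sided, on log2 values). None of the 8 members passed an adjusted p of 0.05 (Benjamini-Hochberg). Lifr had p = 0.0218 and Il11ra1 p = 0.0285 before adjustment in this exact test, and both had an adjusted p of 0.114. Cntfr had p = 0.32 in the exact test (adjusted p = 0.512). Once the GC contrast described below was removed, the same exact test gave p = 0.0348 for Cntfr and p = 0.029 for Lifr, with an adjusted p of 0.139 for each. With the contrast kept in, 1 member passed when tumor 3 was left out, and 1 when tumor 8 was left out.

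The level of Cntfr moved with a property of the libraries. For each library the median log2 deviation from the tumor mean was taken over the GC-richest 10% of the genes minus that over the GC-poorest 10%. This GC contrast was lowest in tumors 9 and 1, at -0.96 and -0.78, the tumors with the least Cntfr. It was highest in tumor 6 at 0.75 and tumor 3 at 0.61. The longest transcript of Cntfr had a GC content of 59.8%, against a median of 49.9% over the genes past the filter. Il11ra1, at 54.7%, and Clcf1, at 56.1%, were also above that median, and Il6st, at 47.4%, was below it. Over the 10 tumors Pearson r with the contrast was 0.89 for Cntfr, 0.84 for Il6st and 0.69 for Il6ra. It was 0.35 for Lif, 0.29 for Clcf1, -0.03 for Lifr and -0.43 for both Il11ra1 and Osmr, so it did not follow the GC content of the members. Tumor 9 also had the highest share of reads on the ribosomal RNA precursor Rn45s, 27.4%, but tumor 1 had 1.21%.

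Over the 6 mice, with the tumors of a mouse averaged, Cntfr and the GC contrast had a Pearson r of 0.89 (exact permutation p = 0.0222, two-sided) and a Spearman rho of 0.71 (exact permutation p = 0.136). Without the 2 mice farthest from the median contrast r was -0.24 over 4 mice. The contrasts of those 4 mice lay close together, so this value cannot decide whether Cntfr follows the contrast among them. In each mouse with several tumors, Cntfr and the contrast had the same order. Tumors 8, 10 and 9, with contrasts of 0.14, -0.11 and -0.96, were at 122, 74.3 and 29.6 normalized cpm. Tumors 6 and 5, at 0.75 and -0.36, were at 179 and 75.7, and tumors 3 and 2, at 0.61 and 0.06, at 117 and 61.6. When the contrast was removed from the log2 values by regression, the SD of Cntfr over the 10 tumors went from 1.04 to 0.507, that of Il6ra from 0.629 to 0.485 and that of Il6st from 0.435 to 0.249. The SD of Osmr was 0.229 before and 0.219 after, that of Lifr 0.421 and 0.446, that of Il11ra1 0.174 and 0.167, that of Lif 0.678 and 0.672 and that of Clcf1 0.555 and 0.562. The labels name both UNMC and Novogene as places of library construction and sequencing, without saying which libraries went where, so the contrast cannot be set against a batch. The part of the contrast in the spread of Cntfr among tumors was not tested. Glands 1, 2 and 3 had contrasts of 0.58, 0.52 and -0.56 and Cntfr at 2.14, 0.671 and 0.488 normalized cpm, so that the gland with the lowest contrast also had the lowest Cntfr, at levels far below the tumors. With the contrast as a covariate the log2 difference between tumors and glands was 5.70 for Cntfr, -1.41 for Il6st, 1.93 for Osmr and 2.09 for Lif.

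**Figure D4:**
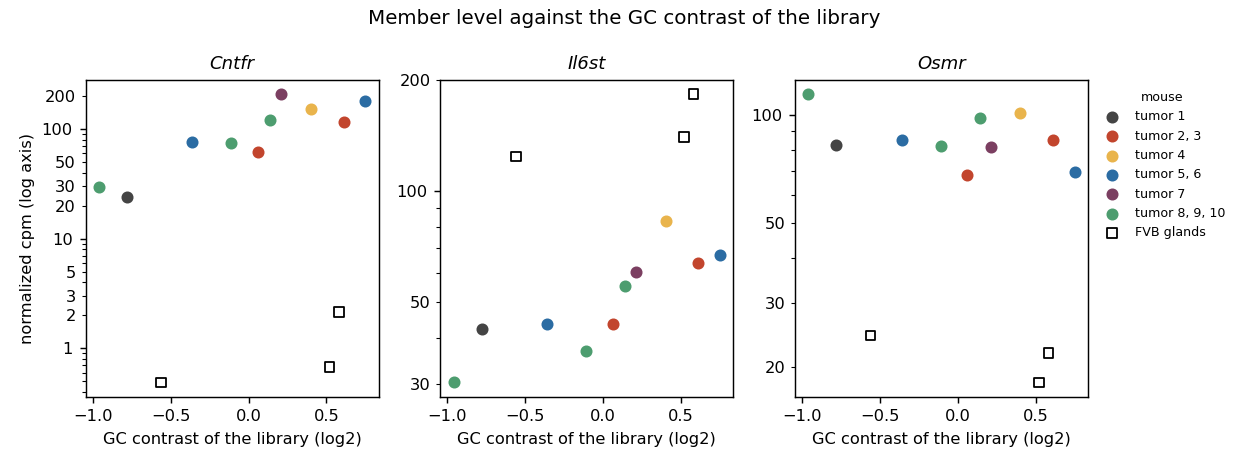
Normalized cpm (log axis) of Cntfr, Il6st and Osmr against the GC contrast of each library (log2, GC-richest minus GC-poorest 10% of genes), with tumors colored by mouse and the 3 FVB glands as open squares. Tumors 1 and 9, at -0.78 and -0.96, have the lowest Cntfr, and the 3 glands, at 0.58, 0.52 and -0.56, lie far below all tumors in Cntfr.

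Cntfr was further set beside the other members and 12 marker lists over the 6 mice, 19 relations in all. None passed an adjusted p of 0.05. The smallest exact permutation p was that of the endothelial list, with r = 0.96 (p = 0.00417, adjusted p = 0.0792) and rho = 0.94 (exact permutation p = 0.0167, adjusted p = 0.211), and r was 0.80 without the 2 mice farthest from the median. The epithelial list had r = 0.87 (exact permutation p = 0.0181, adjusted p = 0.172) and the lymphocyte list r = -0.86 (exact permutation p = 0.0431, adjusted p = 0.273). Their rho was 0.89 (exact permutation p = 0.0333, adjusted p = 0.211) and -0.66 (exact permutation p = 0.175, adjusted p = 0.665). Without the 2 mice farthest from the median r was 0.79 and 0.26. For Il6st r was 0.74 (exact permutation p = 0.0944, adjusted p = 0.359) and rho 0.89 (exact permutation p = 0.0333, adjusted p = 0.211).

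The genes most like Cntfr over the 10 tumors, of 11794 compared, were Clcn7 (Pearson r 0.990), Furin (0.982), St3gal2 (0.980), Nbl1 (0.978) and Marveld1 (0.970). Il6st reached 0.812. The points share mice and the GC contrast, and the longest transcripts of the 5 genes had GC contents of 53.7% to 61.1%. With the contrast removed by regression, the values were 0.967 for Clcn7 (rank 1), 0.917 for Furin (rank 4), 0.913 for St3gal2 (rank 5), 0.897 for Nbl1, 0.888 for Marveld1 and 0.259 for Il6st. Clcn7, a chloride and proton exchanger of lysosomes, was at 25 to 46.3 normalized cpm in the tumors and 27.9 to 41.4 in the glands. In the comparison of tissues Clcn7 (log2 fold change 0.03, adjusted p = 0.938), Furin (0.66, adjusted p = 0.284), St3gal2 (0.63, adjusted p = 0.107) and Marveld1 (-0.88, adjusted p = 0.0742) were not significantly deregulated in limma. Nbl1, a secreted antagonist of bone morphogenetic proteins, rose by 1.58 on the log2 scale (adjusted p = 0.00332, limma).

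Socs3 rose and Cish fell among the other genes of the pathway. The 26 other gp130 pathway genes included Il31 and Il31ra, whose tie to this family is through OSMR. Of the 26, 21 were listed and 15 passed the filter. Of these 15, 1 was significantly higher in tumors (6.67%, against 10.2% of all genes tested), 2 were lower (13.3%, against 6.99%) and 12 were not called. Their median log2 fold change was -0.03, beside 0.01 over all genes tested. After scaling to epithelial genes 1 was higher and 6 were lower, while of all genes tested 553 were higher and 3887 lower. Il11, Cntf, Il27, Il31 and Il31ra were not listed.

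Socs3, the feedback inhibitor that binds gp130, was the gene that rose. It was at 23.2 to 71.6 normalized cpm in the tumors with a median of 42.9, and at 11.2, 5.73 and 9.51 in glands 1, 2 and 3. All tumors were above all glands, and the means were 45.1 ± 15 (SD, n = 10) and 8.82 ± 2.81 (SD, n = 3). The log2 fold change was 2.20 (SE 0.29, adjusted p = 5.41e-05, limma).

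Cish, a feedback inhibitor induced mainly by STAT5, fell. It was at 20.3 to 72.3 normalized cpm in the tumors with a median of 31.9 and at 123, 133 and 72.2 in the glands, and 9 of 10 tumors were below all glands. Its log2 fold change was -1.63 (SE 0.32, adjusted p = 0.00159, limma).

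Stat3 and the kinases of the list were not called. Stat3 ranged from 154 to 345 normalized cpm in the tumors and from 121 to 234 in the glands, with a log2 fold change of 0.37 (SE 0.27, adjusted p = 0.338, limma). For Jak1, a kinase bound to gp130, the log2 fold change of -0.68 (SE 0.21, adjusted p = 0.0218, limma) did not reach 2-fold. After scaling to epithelial genes Stat3 turned to -0.45 (adjusted p = 0.0435, limma), still under 2-fold, whereas Jak1 at -1.50 and Tyk2, a related kinase, at -1.23 (adjusted p = 0.000162 for each, limma) were called lower. The ligand of Osmr, Osm, was at 0.588 to 4.93 normalized cpm in the tumors and 0.31 to 3.3 in the glands, with the groups overlapping, and its log2 difference without the filter was -0.05 (SE 0.43, adjusted p = 0.943, limma). Il27ra, at 1.03 to 2.36 in the tumors and 2.68 to 35.8 in the glands, and Ebi3, at 2.82 to 8.12 and 1.19 to 3.17, also stayed under the filter. Without the filter their log2 differences were -2.53 (adjusted p = 0.000891, limma) and 1.01 (adjusted p = 0.0106, limma). Both were named after their values were seen, and the whole list of pathway genes was written with earlier results of these data known.

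STAT factors bind the palindrome TTCNNNGAA, which reads the same on both strands and was the single motif searched. In the RefSeq promoter windows of GRCm38.p6, 250 bases before to 50 after a start, it was found for 9.55% of 27025 genes. It was found for 4 of 20 other pathway genes with a window (Cish, Gab1, Il31ra and Socs3), for 0 of 8 members with one and for 0 of 20 STAT3 response genes. A match is a description of letters, and its absence says only that they are not in these windows. The windows of the feedback genes that moved in opposite directions are printed with the motif in capitals, for Socs3 at position -154 from the start (chr11:117969317-117969616, minus strand) and for Cish as 2 copies from the start onward (chr9:107296409-107296708, plus strand).
Socs3 promoter: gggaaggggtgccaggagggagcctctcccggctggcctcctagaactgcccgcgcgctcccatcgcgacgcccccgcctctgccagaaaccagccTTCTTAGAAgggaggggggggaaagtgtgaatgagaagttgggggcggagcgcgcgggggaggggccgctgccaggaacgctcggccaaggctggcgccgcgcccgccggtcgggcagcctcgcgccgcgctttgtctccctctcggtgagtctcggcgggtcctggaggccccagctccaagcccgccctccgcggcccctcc
Cish promoter: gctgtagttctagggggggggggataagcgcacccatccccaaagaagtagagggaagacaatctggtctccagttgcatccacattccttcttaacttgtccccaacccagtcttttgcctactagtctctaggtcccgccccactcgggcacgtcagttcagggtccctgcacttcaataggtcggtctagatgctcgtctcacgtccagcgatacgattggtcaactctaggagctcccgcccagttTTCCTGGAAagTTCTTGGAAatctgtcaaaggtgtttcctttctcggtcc

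Genes known to respond to STAT3 included acute phase, immediate early and survival genes. Of 25 such genes all were listed and 24 passed the filter, 13 of them were significantly higher in tumors (54.2%, against 10.2% of all genes tested) and 1 was lower (4.17%, against 6.99%). Their median log2 fold change was 1.04, beside 0.01 over all genes tested. The list was written with earlier results of these data known, so these shares are a description and do not test STAT3 activity. Most of these genes also respond to other signals, among them NF-kappaB and growth factors. After scaling to epithelial genes 8 were higher and 4 lower, while of all 11795 genes tested 553 were higher and 3887 lower. Birc5, Ccnd1, Cd14, Junb and Lrg1 were no longer called after that scaling. With glands 1 and 3 left out the counts of this list moved. That fit holds a single gland, which is assumed to vary as the tumors do.

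The acute phase genes led the list. Saa1, Saa2 and Saa3, which encode serum amyloid A proteins, had log2 fold changes of 5.25 (SE 1.00, adjusted p = 0.00117), 4.99 (SE 1.08, adjusted p = 0.00293) and 4.76 (SE 0.68, adjusted p = 0.000109) in limma. Saa1 was at 63.7 to 1217 normalized cpm in the tumors and at 2.06, 1.5 and 51.3 in glands 1, 2 and 3, and Saa2 at 16.8 to 952 and at 1.58, 0.413 and 18.8. Gland 3 was thus far above the other glands, and Saa2 in tumor 9 was below it. Without gland 3 the log2 fold changes were 6.66 for Saa1 (adjusted p = 0.000192), 6.11 for Saa2 (adjusted p = 0.00143) and 5.56 for Saa3 (adjusted p = 7.2e-05) in limma. Hp, which encodes haptoglobin, was steadier, at 535 to 1091 in the tumors and 46.8, 49.7 and 49.1 in glands 1, 2 and 3 (log2 fold change 3.95, SE 0.20, adjusted p = 1.08e-08, limma). Pim1, a survival kinase, was the gene that fell, at 39.4 to 74.1 normalized cpm in the tumors against 115 to 130 in the glands (log2 fold change -1.19, SE 0.20, adjusted p = 0.000398, limma). Summed neutrophil markers were higher in all tumors than in all glands, macrophage markers summed to 377 to 750 in the tumors and 319 to 324 in the glands, and the part of these cells in the list was not tested.

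**Figure D5:**
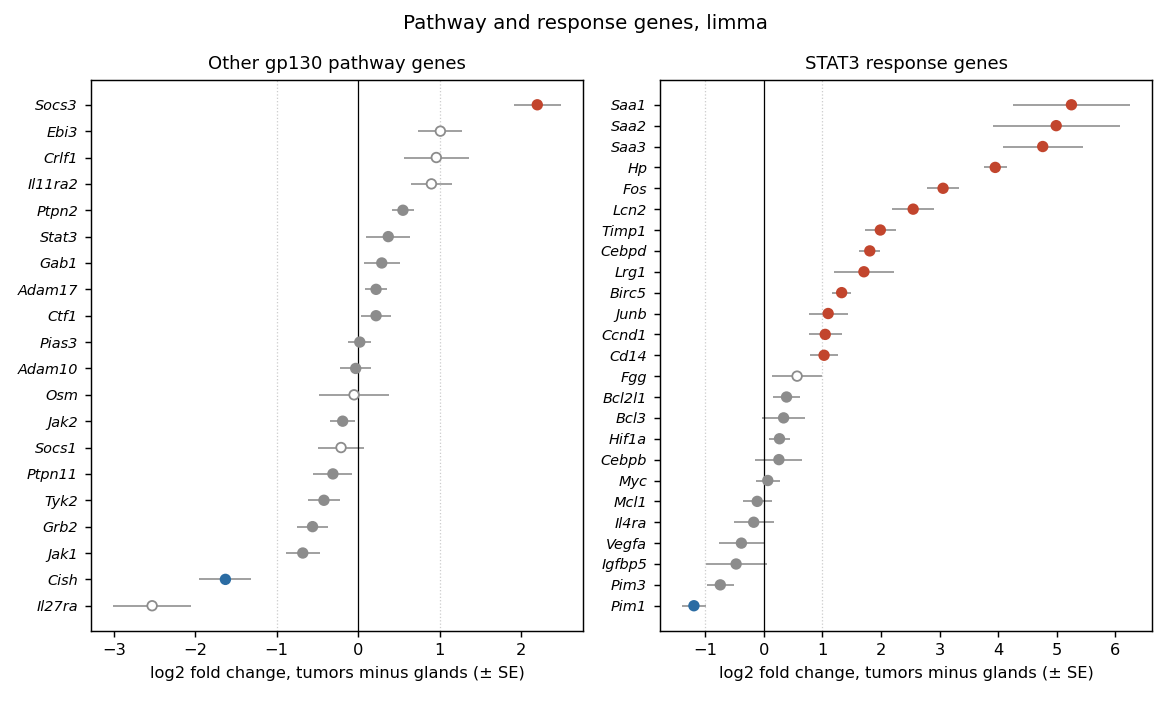
Log2 fold change, tumors minus glands, with SE from limma (10 tumors, 3 glands) for the other gp130 pathway genes reported here and the STAT3 response genes; filled red and blue points are significantly higher and lower, gray points not called, open points did not pass the filter, and dotted lines mark 2-fold. Socs3 at 2.20 is the pathway gene that is called higher, and 13 of 24 tested response genes are. Both lists were written with earlier results of these data known, so the calls are a description.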

How the data were processed

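Total RNA of flash-frozen tumors and glands was sequenced as paired-end reads. Per the methods and the labels, the authors mapped reads to mm10 with Rsubread 2.0.0, obtained gene counts with featureCounts and applied edgeR 3.28.0 for normalization; the strand setting is not given in the sources used here. The methods name the UNMC core facility, and the labels UNMC and Novogene without assigning libraries. The deposited signal values are gene counts relative to a library size that includes a normalization factor. Within 0.1 read, 100% of the values were whole multiples of 1 read, and reads were recovered from them; edgeR's quasi-likelihood test on these reads called 1122 genes higher and 952 lower.

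Genes above 5 normalized cpm in fewer than 7 of the 13 libraries were removed (3418 genes), and 11795 were tested with limma 3.58.1 (trend on mean expression; R 4.3.3) on log2(normalized cpm + 1), with condition as the only term. Calls required an FDR below 0.05 (Benjamini-Hochberg) and more than 2-fold; values of removed genes come from a fit to all listed genes. The scripts were tested on simulated data with 200 changed genes. Exact permutation tests used scipy 1.17.1. Alternatives covered scaling, filter, pseudocounts of 0.5 and 2, edgeR 4.0.16, DESeq2 1.42.0, mouse, a replicate block and left-out libraries; the GC contrast and leaving out tumors 4 and 10 or glands 1 and 3 were added after seeing the data. P-values over tumors treat the 10 tumors as separate although they came from 6 mice.

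Members and gene lists were chosen with earlier results of these data known. Named genes were all members, the 4 genes called higher and the 4 called lower with the largest change in each list, Socs3, Stat3, Jak1 and Osm, and the 5 genes most like Cntfr; a pathway gene called lower and a neighbor of Cntfr are not reported here. Coordinates and promoters are those of RefSeq (GRCm38.p6), exon lengths and GC contents those of GENCODE vM21; 98% of genes past the filter had a GC value, and 8 of 9 members a promoter window (not Clcf1).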

Additional observations from a re-analysis of the deposited data

Results flagged for a closer look

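Of the groups of tumor and gland values tested for a sample far from the others, 19 in all, 1 was picked out: Saa2 in tumor 6, at 952 normalized cpm, where the nearest tumor was at 481. Its gap to that tumor was 0.504 of the range of the 10 tumors, above the critical value of 0.466. Chance picks out about 5% of such groups.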

How the results depend on the processing

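The members, from whose counts nothing is read, had 1 called lower, which became 2 without the filter and 0 with the replicate block. Of all genes tested, 1204 were higher and 825 lower; these were 553 and 3887 after scaling to epithelial genes, 1864 and 495 with plain cpm, and 362 and 182 with the replicate block. Without the filter 1538 were lower, and at an FDR below 0.05 alone 1528. Of the other pathway genes 2 were higher without the filter and also at the FDR alone, while 6 were lower after epithelial scaling, 4 at the FDR alone and 0 with the replicate block. Of the STAT3 response genes 8 were higher and 4 lower after epithelial scaling and 4 and 0 with the replicate block. Their counts also moved with glands 1 and 3 left out, which leaves a single gland. With plain cpm 0 of them were lower, and at the FDR alone 2. Members alike within mice ranged from 0 to 1 when 1 tumor was left out. The causes were not tested, except that the block leaves fewer degrees of freedom. The replicate number is only a name: deviations of the tumor and gland with the same number correlated at -0.579, 0.0447 and -0.664, so no pairing was used. No log2 difference of a member past the call changed sign. Depth limited Cntfr and Lif in the glands and Il6ra and Clcf1 in the tumors.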
